A study of Homo sapiens with 171 samples.

Results

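The comparison described here set untreated DOV13B against untreated DOV13, established human ovarian cancer cell lines with related names. It rested on 3 untreated cultures of DOV13B, which the labels place in batch 3, and 3 untreated cultures of DOV13, which they place in batch 2, out of 167 cultures in the series. Every culture of either line was chosen by its labelled line, treatment and batch, and no measured value entered the choice. DOV13 cultures 1 and 2 were each hybridised to 2 arrays, and the arrays of a culture were averaged, so that 8 arrays gave 6 cultures. The labels do not say how DOV13B was derived from DOV13 or what the batches were, and because every DOV13B culture lay in batch 3 and every DOV13 culture in batch 2, a difference between the lines and a difference between the batches cannot be told apart from these 6 cultures alone. Further cultures of the same lines, 3 of DOV13B and 3 of DOV13 in the same batches, had received cisplatin for 48 h at the concentration set for each line and served as a second measurement of the line difference.

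The study measured expression on Affymetrix arrays in 46 ovarian cancer lines with and without cisplatin. Values are log2 levels after RMA, in which a difference of 1 is a 2-fold difference. A total of 18417 genes were tested. Labels give replicate numbers but no statement that cultures were grown independently, so p-values measure the spread between these cultures.

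Cultured tumour lines that carry nearly the same name usually go back to a single tumour sample and drift apart as they are passaged, through changes in chromosome number, in silenced genes and in which cells of a mixed culture grow out. Platinum drugs such as cisplatin form DNA adducts, and transporters, repair enzymes and stress pathways set how much damage a cell carries. Sublines are therefore compared both for single genes that switch on or off and for blocks of neighbouring genes that move together.

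The median absolute difference between cultures of DOV13B was 0.127 to 0.164 over all genes, against 0.0982 to 0.156 for DOV13, and that between repeat arrays of the same DOV13 culture was 0.169 and 0.177. Array upper quartiles lay between 7.82 and 8.08 in batches 1 to 3. The number of arrays limits the precision, and arrays carry no read depth. Of the markers that define the labelled tissue, some were high in both lines and others near the low end. KRT7, a simple-epithelial keratin, averaged 12.16 in DOV13B and 12.21 in DOV13, among 9 other lines of these batches that spanned 5.88 to 12.35, and VIM, the mesenchymal intermediate filament, averaged 12.54 and 12.47 in the same order of lines. PAX8, a Müllerian lineage factor, averaged 7.79 in DOV13B and 8.73 in DOV13, within the 5.65 to 10.42 of the other lines. CDH1, the epithelial cadherin, was near the lowest of the other lines (4.56) in both, with 4.89 in DOV13B and 5.14 in DOV13. WT1 averaged 5.58 in DOV13B and 5.64 in DOV13 among lines at 5.43 to 6.74, and MUC16, the gene of the CA125 antigen, averaged 4.97 and 5.07 among lines at 4.90 to 6.46, so both genes were near the low end in either line.

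DOV13B and DOV13 were far more alike than any other lines set across these batches, yet many genes differed. Between the untreated lines 3716 of 18417 genes passed an adjusted p of 0.05 in limma (20.2% of genes), 2386 higher in DOV13B (13%) and 1330 lower (7.22%). Most of these differences were small, with a median size of 0.482 on the log2 scale. Only 294 genes differed at least 2-fold as well (1.6%), 173 higher and 121 lower in DOV13B. For 293 of these 294 genes the 3 DOV13B values lay clear of the 3 DOV13 values, while the same held for 39.9% of all genes. The split of calls depended on how arrays were scaled: with each array centred on its median 2575 genes were higher and 1176 lower, and after quantile normalization 1945 were higher and 1731 lower.

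The other lines of the same batches were set beside the pair. There were 6 lines in batch 2 and 5 in batch 3, which makes 30 pairs of a batch 3 and a batch 2 line, and 20 of these contain neither DOV13B nor DOV13. DOV13B minus DOV13 had the fewest genes past both limits of the 30 pairs. Its 294 genes compare with 880 for C13 minus A2008, the other pair of like lines, and with 2053 to 3571 for the remaining 19 pairs. The median absolute difference was 0.188 for DOV13B minus DOV13, 0.226 for C13 minus A2008 and 0.263 to 0.390 for the others. Across 18417 genes the correlation of the DOV13B minus DOV13 difference with the mean batch 3 minus batch 2 difference of the other lines was -0.015, and that with C13 minus A2008 was -0.026. These are descriptions across genes, which are not independent, and the compared sets share no culture.

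**Figure D1:**
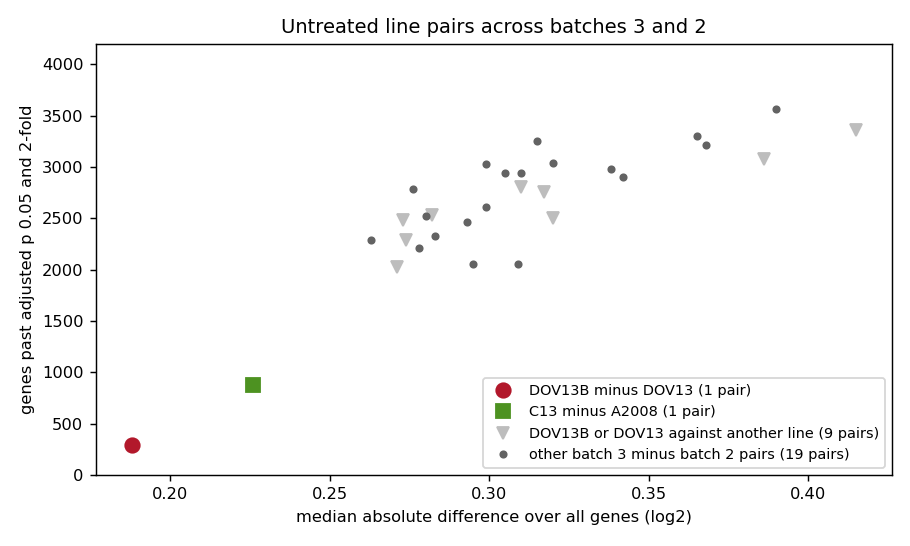
Each point is a pair of an untreated batch 3 line and an untreated batch 2 line, with the median absolute difference over all genes (log2) on the horizontal axis and the number of genes past an adjusted p of 0.05 and 2-fold on the vertical axis. DOV13B minus DOV13 sits lowest with 294 genes, C13 minus A2008 next with 880, and the other 19 pairs without DOV13B or DOV13 lie between 2053 and 3571.

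A set of 3 further contrasts was used to choose which genes to describe first. The first was the same lines after cisplatin, and the second was the pair difference minus that of C13 and A2008. The third was the pair difference minus the mean batch difference of the other lines. In treated cultures 1594 genes were higher in DOV13B (8.66%) and 1067 lower (5.79%). A gene that passed, in 1 direction throughout, all 4 contrasts is called lasting below. There were 821 such genes, 546 higher in DOV13B (2.96%) and 275 lower (1.49%), and they include 177 of the 294 genes with a 2-fold difference. The contrasts share the untreated cultures of DOV13B and DOV13, apart from the treated one, and C13 and A2008 are themselves different lines, so these contrasts do not remove a batch effect that acts on DOV13B alone. Differences between lines are not part of the spread between cultures that the p-values use. A gene can therefore pass because other lines go the opposite way, as LOX did in C13 minus A2008 (-2.94). The contrast against C13 and A2008 had 5647 calls and that against the other lines 6681.

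The largest fall was in ABCB1, which encodes P-glycoprotein, the efflux pump that removes taxanes, anthracyclines and other bulky drugs from cells. ABCB1 read 5.09, 5.18 and 5.40 in the DOV13B cultures, against 8.63, 8.47 and 8.30 in the DOV13 cultures. The groups did not overlap, and DOV13 stood above all 9 other lines of both batches (3.97 to 8.03). The difference was -3.24 ± 0.19 (log2, SE; limma adjusted p = 1.54e-24), or 9.46-fold lower in DOV13B. After cisplatin the cultures read 4.36, 4.91 and 5.00 in DOV13B, against 8.46, 7.76 and 8.12 in DOV13, a difference of -3.36. Among the other 20 pairs the lowest ABCB1 difference was -2.89, and C13 minus A2008 was -2.53, so a low ABCB1 in a batch 3 line also occurred elsewhere, while the contrasts against the other lines were still passed.

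The neighbours of ABCB1 on chromosome 7 fell with it. RUNDC3B, which encodes a RUN-domain protein, read 4.28, 4.31 and 4.25 in DOV13B, against 7.03, 6.99 and 6.22 in DOV13. Its difference was -2.47 (adjusted p = 6.96e-20), and DOV13 was again above all 9 other lines, which spanned 3.73 to 5.00. ABCB4, the hepatic phospholipid pump and nearest relative of ABCB1, read 3.70, 4.04 and 3.98 in DOV13B, against 5.44, 5.42 and 5.44 in DOV13. That is a difference of -1.53 (adjusted p = 3.42e-15), with the other lines between 3.74 and 4.28. For both genes the difference lay below that of all 20 other pairs, whose lowest were -0.79 for RUNDC3B and -0.54 for ABCB4. The 3 genes stand next to each other in gene order, and all 3 were lasting. The genes on either side did not share the fall: CROT, which encodes a peroxisomal carnitine acyltransferase and precedes ABCB4, differed by +0.42 (not past without DOV13B culture 3, +0.36, or DOV13 culture 3, +0.39), and SLC25A40, a mitochondrial carrier that follows RUNDC3B, by +0.16, which did not pass. Of the other genes within 6 places of ABCB1, none was lower past the threshold.

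The promoters of ABCB1 and RUNDC3B are shown because these opposite-strand neighbours fell together. RefSeq (GRCh38.p14) lists 2 starts for ABCB1 on the minus strand, and the start of RUNDC3B, on the plus strand, lies between them. CCAAT boxes, searched as CCAAT on both strands, are in capitals, and ATTGG is the same box on the other strand. The downstream ABCB1 start, chr7:87600835-87601134 on the minus strand, holds 2 and the RUNDC3B promoter, chr7:87628148-87628447 on the plus strand, holds 1. This ABCB1 start was chosen because the other one does not hold more. A match occurs in 34.6% of the 35116 promoters of this table, so it is a description and sets neither gene apart.
ABCB1: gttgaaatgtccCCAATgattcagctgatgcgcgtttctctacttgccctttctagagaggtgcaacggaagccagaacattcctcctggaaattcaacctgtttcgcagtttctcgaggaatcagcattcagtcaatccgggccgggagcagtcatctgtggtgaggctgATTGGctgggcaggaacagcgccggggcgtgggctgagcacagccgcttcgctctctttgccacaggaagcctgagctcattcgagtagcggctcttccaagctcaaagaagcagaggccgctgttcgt
RUNDC3B: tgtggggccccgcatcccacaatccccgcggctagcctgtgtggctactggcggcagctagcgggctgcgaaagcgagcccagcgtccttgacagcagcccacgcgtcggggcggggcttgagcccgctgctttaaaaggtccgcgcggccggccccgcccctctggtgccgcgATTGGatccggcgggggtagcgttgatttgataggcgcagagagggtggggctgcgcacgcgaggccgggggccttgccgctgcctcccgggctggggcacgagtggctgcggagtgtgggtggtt

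The other ABC transporters went the opposite way or did not pass. Of 14 measured, 4 were higher and 2 lower in DOV13B. ABCC3, which exports organic anions and conjugates, averaged 8.67 in DOV13B and 7.30 in DOV13, a difference of +1.37 (adjusted p = 1.10e-05). ABCA1, the cholesterol exporter, differed by +0.83, a call that was lost without DOV13 culture 3 (+0.67, adjusted p = 0.15) or without any 1 DOV13B culture (adjusted p of 0.0538 to 0.0804). ABCC5 differed by +0.54 and ABCA3 by +0.50. ABCG2, another drug pump, differed by +0.05 and ABCC1 by +0.17, neither past the threshold. Of 14 platinum transport genes 3 were higher and 1 lower in DOV13B. SLC31A1, the copper importer CTR1, averaged 9.17 in DOV13B and 9.05 in DOV13 (adjusted p = 0.502), and did not pass. ATP7B, a copper exporter, averaged 6.87 and 6.66 (adjusted p = 0.314). ATOX1, the copper chaperone that hands copper to ATP7B, was higher by +0.65 (adjusted p = 5.25e-06). Also higher were SLC31A2 (+0.42 to +0.57 over the alternative settings run) and ATP7A (+0.27 to +0.40), and LRRC8D was lower (-0.32 to -0.17). The ATP7A call was lost in 8 of 17 alternatives and the LRRC8D call in 10.

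Among genes higher in DOV13B the difference of a complement gene was the largest. C3, the central complement component whose cleavage starts opsonisation, read 9.83, 9.70 and 9.81 in DOV13B, against 5.95, 5.89 and 5.88 in DOV13. These groups lie far apart, and DOV13B was above all 9 other lines of the batches, which spanned 4.86 to 8.79. The difference was +3.87 ± 0.38 (adjusted p = 3.72e-13), or 14.7-fold, the largest of any gene past all contrasts, and +3.78 after cisplatin. C1S, the serine protease of the C1 complex, read 8.17, 8.09 and 8.26 in DOV13B, against 5.53, 5.83 and 5.42 in DOV13, a difference of +2.58 (adjusted p = 5.21e-19). Its partner protease C1R read 9.46, 9.44 and 9.51 in DOV13B, against 8.08, 8.10 and 8.03 in DOV13, and all 9 other lines lay below both, between 5.57 and 7.86. Of 33 complement genes measured, a group chosen after values had been seen, 8 were higher, 2 lower and the median difference was -0.01. Among the 11 of them above the median level of all genes in at least 1 of the lines, 8 were higher and none lower, with a median of 0.96. A gene high in only 1 line enters through that line, so this count describes and does not test. Of all genes kept by the same rule, 2311 were higher and 911 lower. The other 5 higher genes were C1RL, factor B (CFB), clusterin (CLU) and the membrane inhibitors CD59 and CD46, at +0.62 to +1.08. The 2 lower genes were C4BPB, a chain of an inhibitor of the classical pathway, at -0.55, and MASP2, a lectin-pathway protease, at -0.39. C4BPB no longer passed without DOV13B culture 1 (-0.48, adjusted p = 0.0512), and MASP2 did not pass without any of 5 cultures (adjusted p of 0.0598 to 0.185, the exception being DOV13B culture 3).

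Several genes of innate immunity and inflammation were higher as well. CASP1, the inflammasome protease that matures interleukin 1 beta, read 6.68, 6.44 and 6.54 in DOV13B, against 3.99, 3.66 and 4.15 in DOV13, or +2.62 (adjusted p = 3.02e-15). TFPI, the inhibitor of tissue factor in coagulation, read 7.27, 6.86 and 7.30 in DOV13B, against 4.07, 4.23 and 3.73 in DOV13, or +3.13 (adjusted p = 1.88e-06). Neither gene's groups overlapped, but both lay within the range of the other lines. SOD2, the mitochondrial superoxide dismutase that is induced by NF-kB, read 11.01, 10.96 and 11.24 in DOV13B, against 9.19, 9.22 and 8.97 in DOV13, and the other 9 lines reached only 9.58. PTX3, a secreted pentraxin of the acute phase, averaged 9.79 in DOV13B and 7.87 in DOV13, and the other lines spanned 3.51 to 6.55, so both lines stood above them. Of 34 NF-kB targets and chemokines, 8 were higher (23.5%, against 13% of all genes) and none lower. The median difference was 0.12, against 0.23 for C13 minus A2008. The 8 include IL6 (+1.19), IL7R (+2.33), IL1B (+1.12), ICAM1 (+0.85), NFKBIZ (+0.98) and the pathway's inhibitor NFKBIA (+0.89). In C13 minus A2008 IL7R (+4.96), IL1B (+3.38), ICAM1 (+1.33), NFKBIA (+0.8) and IL6 (+0.16) were on the same side. NFKBIZ (-0.96), SOD2 (-1.48) and PTX3 (-0.52) were on the other side there. Of the 8 only SOD2 and PTX3 were lasting.

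HCLS1, a haematopoietic adaptor, and CD68, a lysosomal glycoprotein of macrophages, were also higher, by +2.06 and +1.46. These genes are commonly read as leukocyte genes, so the leukocyte list was measured as a whole. Of its 15 markers 1 was higher (CD68) and 1 lower (NKG7, a granule protein of cytotoxic cells, -0.55). NKG7 no longer passed without DOV13B culture 3 (-0.49) or DOV13 culture 3 (-0.44). The mean level over the 15 markers ran from 4.64 to 4.76 in the DOV13B cultures and from 4.68 to 4.71 in the DOV13 cultures. PTPRC, which encodes CD45 and defines leukocytes, averaged 2.92 in DOV13B and 2.88 in DOV13, near the lowest of the other lines (2.68), and CD3E (+0.17) and CD14 (-0.49) did not pass either. None of 12 endothelial markers passed. CDH5, the endothelial cadherin, was nevertheless high in both lines, at 10.16 in DOV13B and 9.93 in DOV13 among lines at 5.02 to 10.25, while PECAM1, another endothelial marker, was at 4.19 and 4.40. Of 14 fibroblast markers 2 were higher (ACTA2 and THY1) and 1 lower (COL1A1).

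**Figure D2:**
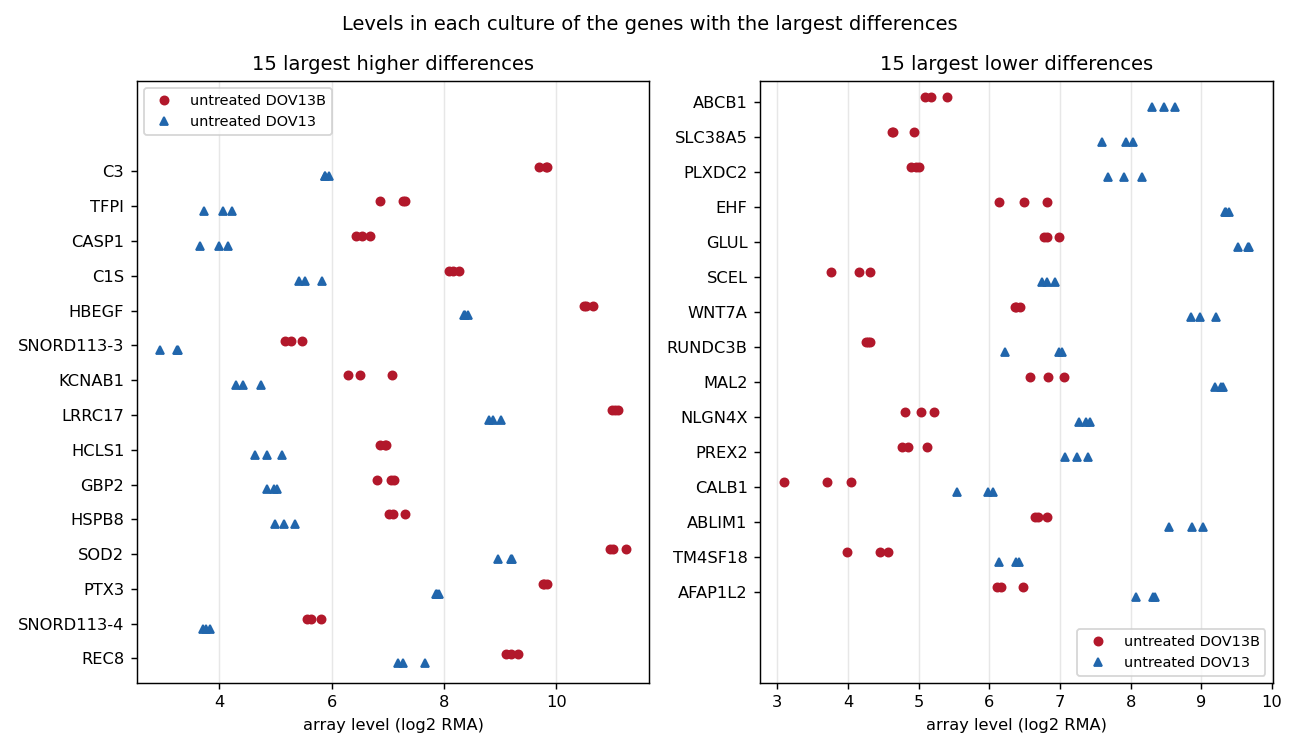
Log2 RMA level of each untreated culture for the 15 lasting genes with the largest differences in each direction, with DOV13B as red circles and DOV13 as blue triangles. In all 30 genes the 3 DOV13B values lie clear of the 3 DOV13 values, from C3 at 9.70 to 9.83 in DOV13B and 5.88 to 5.95 in DOV13, to ABCB1 at 5.09 to 5.40 in DOV13B and 8.30 to 8.63 in DOV13.

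The remaining genes with the largest falls were of mixed function. SLC38A5, a glutamine and glycine transporter, read 4.93, 4.64 and 4.63 in DOV13B, against 8.03, 7.94 and 7.59 in DOV13. GLUL, glutamine synthetase, read 6.78, 6.81 and 6.99 in DOV13B, against 9.66, 9.68 and 9.52 in DOV13. Both glutamine genes were thus lower in every DOV13B culture, by -3.12 and -2.76. With the lowest probe set per gene the GLUL difference was -0.94 (adjusted p = 2.82e-05). WNT7A, a secreted WNT ligand of the Müllerian tract, read 6.44, 6.36 and 6.38 in DOV13B, against 9.21, 8.98 and 8.86 in DOV13, or -2.62 (adjusted p = 6.27e-29). PLXDC2, a transmembrane receptor, fell by 2.96 and EHF, an epithelial ETS factor, by 2.87. SCEL, RUNDC3B, MAL2, NLGN4X, PREX2, CALB1, ABLIM1, AFAP1L2 and TM4SF18 complete the 15, at -1.99 to -2.75. Among the rises, KCNAB1, a potassium channel subunit, LRRC17, a secreted leucine-rich protein, and REC8, the meiotic cohesin subunit, averaged 6.63, 11.05 and 9.20 in DOV13B, against 4.48, 8.90 and 7.37 in DOV13. For each of these genes DOV13B was above all 9 other lines, whose highest were 4.83, 5.52 and 6.02. GBP2, an interferon-induced GTPase, rose by +2.04 (+1.39 with its lowest probe set) and HSPB8, a small heat shock protein, by +1.98.

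Growth factor signalling genes moved in both directions. Shares called in these groups are given to be read against the 13% higher and 7.22% lower of all genes, and no group's higher share stood out from that 13%. HBEGF, a ligand of the EGF receptor, read 10.50, 10.52 and 10.66 in DOV13B, against 8.37, 8.35 and 8.42 in DOV13, and the other lines spanned 6.30 to 10.23. That difference of +2.18 was the largest among 17 genes of the EGF family and its receptors, of which 1 was higher (5.88%) and 3 lower (17.6%). EGFR itself averaged 8.35 in DOV13B and 8.32 in DOV13 (adjusted p = 0.884). Of 38 other growth factors and receptors, 5 were higher (13.2%) and 10 lower (26.3%). FGF18 averaged 6.67 in DOV13B and 8.44 in DOV13, VEGFC, the lymphangiogenic factor, 6.78 and 8.37, and KITLG, the ligand of KIT, was lower by -1.31. Of 34 genes of the TGF-beta and BMP pathways, 3 were higher (8.82%) and 9 lower (26.5%). The lower genes include the BMP antagonists CHRDL1 (-2.25) and NOG (-1.75) and the receptor BMPR1B (-1.21). The BMP-induced inhibitor of differentiation ID3 was higher by +1.02. Of 38 WNT pathway genes, 2 were higher (5.26%) and 7 lower (18.4%).

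Genes transcribed in response to the RAS and MAPK cascade were mostly lower in DOV13B, 8 of 10 untreated and 6 of 10 after cisplatin. This group of 10 genes was put together after values of some of them had been seen, so its count describes and does not test. In it 8 genes were lower and none higher in the untreated lines, with a median difference of -1.03, against 0.62 for C13 minus A2008 and 0.11 for the mean batch difference of the other lines. DUSP6, the phosphatase that switches off ERK, read 7.61, 7.29 and 7.64 in DOV13B, against 9.11, 8.89 and 8.56 in DOV13, or -1.34 (adjusted p = 3.00e-12). SPRY2, a feedback inhibitor of receptor tyrosine kinases, read 7.59, 7.83 and 7.71 in DOV13B, against 9.05, 9.01 and 9.04 in DOV13, or -1.32 (adjusted p = 4.24e-08). The groups overlapped in neither gene. ETV4, an ETS factor induced by ERK, averaged 6.20 in DOV13B and 7.76 in DOV13, and all 9 other lines lay above DOV13B, between 6.81 and 9.27. DUSP4 (-1.33), SPRY4 (-1.30), ETV5 (-0.76), the cyclin CCND1 (-0.55) and the receptor EPHA2 (-0.50) make up the 8, and PHLDA1 (-0.15) and EPHA4 (+0.51) did not pass. Of these genes ETV4, DUSP6, DUSP4, SPRY2, SPRY4 and CCND1 were lasting.

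Epithelial genes leaned lower in the untreated lines. Of 25 measured, 7 were lower and 1 higher, with a median difference of -0.33, against 0.25 for C13 minus A2008. After cisplatin 7 were lower and 1 higher as well, but the median was -0.09. MAL2 and ESRP2 were the 2 lasting members. EPCAM, the epithelial adhesion molecule, read 6.76, 6.80 and 6.53 in DOV13B, against 7.54, 7.51 and 8.63 in DOV13, a difference of -1.20 (adjusted p = 0.0223). It was -0.83 (adjusted p = 0.205) without DOV13 culture 3 and -1.12 (adjusted p = 0.0854) without DOV13B culture 3. MAL2, a transcytosis protein (-2.43), JUP, junctional plakoglobin (-0.95), and ESRP2, an epithelial splicing regulator (-0.91), were lower too, while the higher gene was CLDN7, a tight-junction claudin (+0.46). Of 24 mesenchymal genes 4 were higher, LOX, ACTA2, ZEB2 and THY1, and 1 lower, CDH11, an osteoblast cadherin (-0.97), with a median of 0.07. ZEB1, the repressor of CDH1, averaged 8.08 in DOV13B and 7.99 in DOV13 (adjusted p = 0.881). Of 28 ovarian lineage genes, SOX17 (-1.37), SPP1 (-1.11) and PAX8 (-0.94) were lower and MSLN, mesothelin, was higher (+0.95). SPP1 no longer passed without DOV13B culture 1 (-1.07), DOV13B culture 2 (-1.03) or DOV13 culture 3 (-1.05), nor ZEB2 without DOV13B culture 3 (+0.69). With its lowest probe set ZEB2 differed by +0.18 (adjusted p = 0.632). The mean level over the 12 mesothelial markers was 6.47 to 6.71 in DOV13B cultures and 6.48 to 6.66 in DOV13 cultures.

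Interferon-stimulated genes were higher in DOV13B, but about as much higher in C13 than in A2008. Of 37 measured, 17 were higher and none lower in DOV13B, with a median difference of 0.48, against 0.59 for C13 minus A2008 and 0.04 for the mean batch difference of the other lines. MX2 and XAF1, antiviral and pro-apoptotic effectors, differed by +1.31 and +1.28 and were the 2 lasting members. OAS1, IFIT3 and MX1 differed by +1.14, +1.19 and +1.12 in DOV13B minus DOV13, and by +1.35, +1.44 and +1.5 in C13 minus A2008. After cisplatin 13 members were higher and none lower. Without DOV13B culture 3 the untreated count was 10, and the median was 0.40.

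The promoter of IFIT3 is shown as an example of this group, with its interferon response elements in capitals. The element was searched as GAAA, any 2 bases and GAAA again on both strands, and TTTC, any 2 bases and TTTC is the same element on the other strand. RefSeq promoters were found for 29 of the 37 genes, and 22 of these (75.9%) hold a match, against 3.57% of the 35116 promoters in the table. Among the 13 of these 29 genes that were higher in DOV13B, 9 hold one, so a match did not set the higher genes apart from the group. The stretch printed is chr10:89327747-89328046 of GRCh38.p14 on the plus strand and holds 2. It was chosen because no other listed IFIT3 start holds more.
IFIT3: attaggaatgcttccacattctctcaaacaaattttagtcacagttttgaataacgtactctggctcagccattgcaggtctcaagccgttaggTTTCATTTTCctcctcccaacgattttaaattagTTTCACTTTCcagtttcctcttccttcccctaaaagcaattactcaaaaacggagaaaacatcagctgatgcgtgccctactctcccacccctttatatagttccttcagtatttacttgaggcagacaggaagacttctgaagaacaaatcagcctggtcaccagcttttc

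Metabolic groups showed the same kind of overlap with the other like pair. Of 18 cholesterol synthesis genes 8 were higher and none lower, with a median of 0.32. It was 0.53 for C13 minus A2008 and 0.33 for the mean batch difference of the other lines, so the batches differed as much without this pair. After cisplatin 2 were higher, with a median of 0.14. INSIG1, which holds back sterol synthesis, averaged 10.29 in DOV13B and 8.83 in DOV13 and was lasting (+1.46), as was STARD4, a sterol carrier (+0.51). Of 35 glutathione and NRF2 target genes 13 were higher and 1 lower, with a median of 0.24, against 0.51, and after cisplatin 9 were higher and 3 lower. HMOX1, heme oxygenase, differed by +1.28 and was the only lasting member, whereas AKR1B10, AKR1C3 and AKR1C2, aldo-keto reductases of this group, differed by +2.10, +1.33 and +1.26 in DOV13B minus DOV13 and by +2.60, +2.48 and +3.38 in C13 minus A2008. Without DOV13 culture 3 AKR1C2 differed by +0.80 and no longer passed (adjusted p = 0.0936). Of 32 hypoxia and glycolysis genes 12 were higher and 1 lower, led by PDK1, which restrains pyruvate oxidation (+1.00), with a median of 0.18, against 0.25, and after cisplatin 11 were higher and 1 lower. The 12 housekeeping genes had a median of 0.18 as well, with 2 higher, TBP (+0.30) and SDHA (+0.33). TBP no longer passed without DOV13B culture 3 or DOV13 culture 1 or 2 (+0.27 to +0.28), nor SDHA without DOV13B culture 2 or 3 or DOV13 culture 3 (+0.28 to +0.33).

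Cell division genes were lower in DOV13B. Of 29 mitotic genes 24 were lower and 1 higher, with a median of -0.43, and after cisplatin 15 were lower and 1 higher, with a median of -0.26. The largest falls were in CENPE, a kinetochore motor (-0.89), BUB1B, a spindle checkpoint kinase (-0.62), and CDC20 and BIRC5 (-0.60 each), and the treated difference of CDC20 was -0.01. The higher gene was CDC25C (+0.28). The median in C13 minus A2008 was -0.40. Of the 24 lower genes 7 also passed as lower against that pair, 15 in treated cultures and 22 against the other lines, and 5 were lasting: PRC1, CCNA2, MAD2L1, NDC80 and KIF2C. DNA replication genes differed from this. Of 34 measured 11 were lower and 2 higher, with a median of -0.21, against 0.17 in C13 minus A2008, and after cisplatin 11 were lower and none higher. The licensing helicase subunits MCM4 (-0.63) and MCM3 (-0.48), the GINS subunit GINS2 (-0.68) and thymidylate synthase, TYMS (-0.58), were lower, and 6 members were lasting. The number of lower replication genes was 20 after quantile normalization and 6 without DOV13B culture 2. CDKN1A, the p53-induced cell cycle inhibitor, was higher by +0.40 (adjusted p = 0.0403), which passed without DOV13 culture 1 and not without any other culture (+0.33 to +0.44). Of 33 p53 target genes 4 were higher (12.1%) and none lower, a share of higher genes near the 13% of all genes.

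**Figure D3:**
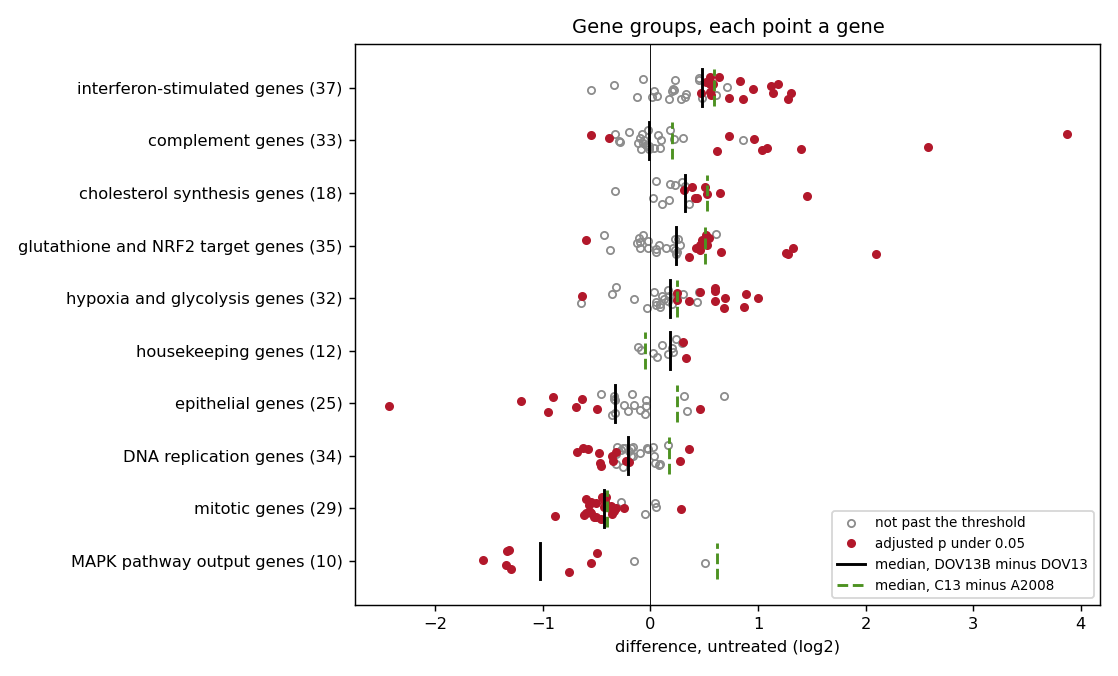
Difference of every measured gene (log2, untreated DOV13B minus untreated DOV13) in 10 gene groups, filled where the adjusted p was under 0.05, with the group's median as a black line and its median in C13 minus A2008 as a green dashed line. The lines nearly coincide for mitotic genes, at -0.43 for DOV13B minus DOV13 and -0.40 for C13 minus A2008, and lie on opposite sides of 0 for the MAPK output genes, at -1.03 and 0.62.

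The shares called in the remaining groups are set beside the 13% higher and 7.22% lower of all genes. Of 17 aldehyde dehydrogenase genes 6 were higher (35.3%) and none lower, of 23 oxidative phosphorylation genes 6 were higher (26.1%) and 1 lower, and of 20 ribosomal protein genes 4 were higher (20%) and none lower. Of 19 nucleotide excision repair genes 5 were higher (26.3%) and 1 lower, led by ERCC8 (+0.78) and ERCC4 (+0.67), while ERCC1, the partner of ERCC4, differed by +0.18 (adjusted p = 0.283). Of 22 Fanconi and homologous recombination genes 2 were higher and 2 lower, and BRCA1 averaged 8.02 in DOV13B and 8.21 in DOV13 (adjusted p = 0.160). SLFN11, a DNA damage sensitiser, averaged 9.43 in DOV13B and 9.44 in DOV13, and GSTP1, a glutathione transferase, 12.02 and 11.98, neither past the threshold. Of 26 HOXB, HOXC and HOXD genes 1 was higher and 6 lower (23.1%), of 20 cancer-testis antigen genes 1 was higher and 4 lower (20%), and of 37 matrix genes 1 was higher and 7 lower (18.9%), including the collagens COL4A1, COL4A2 and COL1A1.

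Of all chromosomes, chromosome 5 had the median difference farthest from 0. The median difference of its 782 genes was 0.254, or 1.19-fold, in untreated DOV13B minus DOV13 and 0.216 in the treated cultures, whereas the other autosomes and X ran from -0.0908 to 0.0617 untreated. On chromosome 5, 41.6% of genes were higher past the threshold and 4.99% lower. Of the 546 genes lasting and higher, 150 lay on chromosome 5 (27.5%), which holds 4.26% of the genes placed on a chromosome. The culture values show the same division: taken from the mean of the 6 untreated cultures, the chromosome 5 median was 0.14, 0.13 and 0.18 in DOV13B, against -0.14, -0.14 and -0.14 in DOV13. The cultures did not overlap, and the medians of the other chromosomes together were between -0.01 and 0.03. In the treated cultures the values were 0.12, 0.11 and 0.12 in DOV13B, against -0.12, -0.11 and -0.12 in DOV13.

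Against the median line of its own batch, a reference of 6 lines in batch 2 and 5 in batch 3 that includes the line itself, the chromosome 5 median was 0.03 in DOV13B and -0.01 in DOV13, and the other lines ran from -0.09 to 0.05. Among the 20 other pairs the chromosome 5 median ran from -0.0674 to 0.191, and in C13 minus A2008 it was 0.0287. Other chromosomes moved as far or farther in those pairs, since chromosome 22 reached 0.415 and chromosome 7 reached 0.293. Windows of 40 neighbouring genes show where the shift lay. Of 1755 windows, 38 had a median beyond 0.3 in either direction, and 35 of them were on chromosome 5, while in C13 minus A2008 66 windows passed that limit. The 150 genes from PLEKHG4B to CCNO at the start of the chromosome had a median difference of 0.02, and the 632 genes from DHX29 to TRIM52 had 0.34 untreated and 0.27 treated. This dividing point was taken from the windows themselves. The highest window ran from ADGRV1 to SLC25A46, at 0.61 untreated and 0.31 treated, against -0.29 in C13 minus A2008.

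Single genes of chromosome 5 went well beyond its median. LHFPL2, a tetraspan membrane protein, read 10.30, 10.30 and 10.32 in DOV13B, against 8.80, 8.73 and 8.59 in DOV13. PPP2R2B, a regulatory subunit of protein phosphatase 2A, read 6.73, 6.57 and 6.86 in DOV13B, against 4.87, 4.99 and 5.09 in DOV13. SSBP2, a LIM-domain cofactor, differed by +1.68, ZFP2, a zinc finger gene, by +1.63, and SLC22A4, a carnitine-family transporter, by +1.61. ARL15, DOCK2 and F2RL2 differed by +1.45, +1.38 and +1.37 and LOX, lysyl oxidase, by +1.31, and HBEGF, described above, also lies there. These genes were picked by the size of their difference after values had been seen. FGF18 (-1.77) and the kidney cadherin CDH6 (-1.52) on the same chromosome were lower. MSH3, a mismatch repair gene of this chromosome, averaged 8.56 in DOV13B and 7.86 in DOV13 and was lasting (+0.70).

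**Figure D4:**
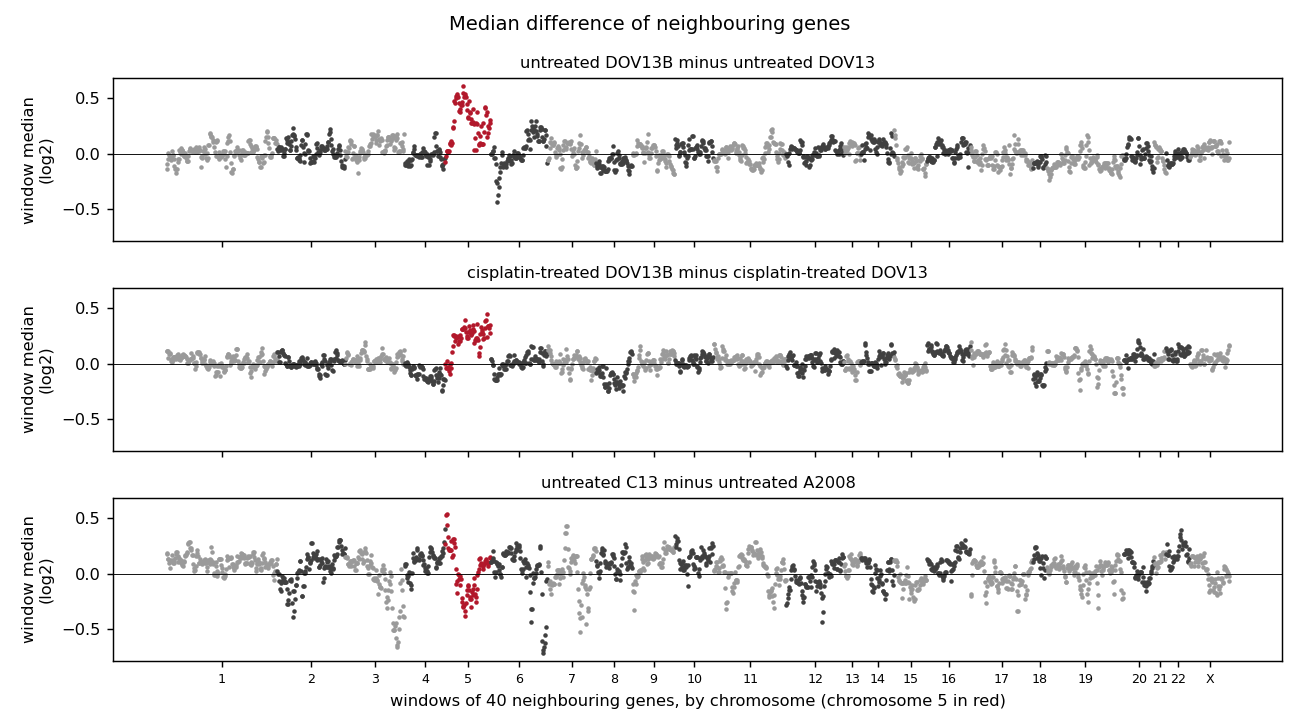
Median difference (log2) in windows of 40 neighbouring genes, ordered by chromosome, for untreated DOV13B minus DOV13, the treated cultures of the same lines and untreated C13 minus A2008. Chromosome 5, in red, rises to 0.61 untreated and stays above 0 over most of its length in both arms of DOV13B minus DOV13, while in C13 minus A2008 chromosome 5 is on both sides of 0.

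The remaining 3 windows beyond 0.3 held the histone genes of chromosome 6. Of 49 clustered histone genes there, 29 were lower in untreated DOV13B and none higher, with a median of -0.52, against 0.01 in C13 minus A2008. After cisplatin 9 were lower and the median was -0.24. Histone genes are near-identical copies whose probes share sequence, so their separate values are uncertain, and they were looked at because the windows pointed there.

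Small nucleolar RNAs of the imprinted region on chromosome 14 were mostly higher, and those on chromosome 15 mostly did not pass. SNORD113-3, of the maternally expressed MEG3 region, read 5.17, 5.47 and 5.28 in DOV13B, against 2.95, 3.24 and 3.26 in DOV13, and all 9 other lines lay between 2.73 and 3.37. SNORD113-4 read 5.57, 5.64 and 5.82 in DOV13B, against 3.84, 3.76 and 3.72 in DOV13. Both of 2 measured SNORD113 members and 3 of 4 SNORD114 members were higher, and MEG3, the long noncoding RNA of the region, averaged 6.92 in DOV13B and 5.95 in DOV13 (+0.97, adjusted p = 0.000258). DLK1, the paternally expressed gene beside them, did not pass (-0.24). Of 20 SNORD116 members on chromosome 15, 9 were higher and none lower, and of 20 SNORD115 members none was higher and 1 lower. When each culture was left out in turn, 3 of the 9 SNORD116 calls held throughout, the SNORD115 call did not, and the 2 SNORD113 and 3 SNORD114 calls all did. These RNAs are short and copies within a family resemble each other, so their separate values are uncertain.

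The larger line differences were also found after cisplatin. Of the 3716 genes past the threshold untreated, 1539 passed with the same sign in treated cultures, which is 41.4% of the untreated and 57.8% of the treated calls, and 7 passed with the opposite sign. Of the 294 genes with a 2-fold difference, 258 passed in treated cultures with the same sign (87.8%) and none with the opposite sign. Across all genes the differences of the arms correlated at 0.66, as a description over 18417 genes. The arms share no culture, but they share line and batch. Only 15 genes differed between the arms themselves (0.0814%), with 2418 at an unadjusted p under 0.05.

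**Figure D5:**
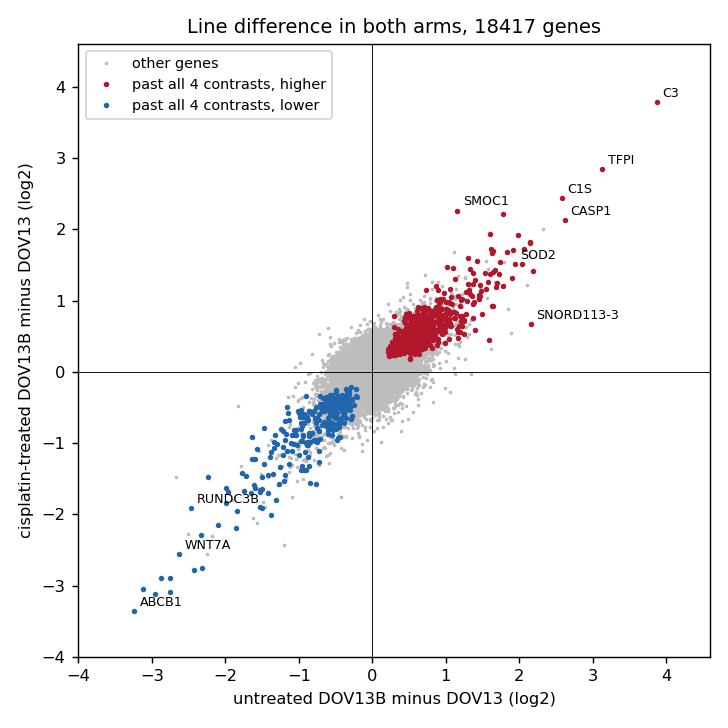
Difference between the lines in untreated cultures (horizontal, log2) and in cisplatin-treated cultures (vertical, log2) for 18417 genes, with the 821 lasting genes in red where higher in DOV13B and blue where lower. C3 at 3.87 untreated and 3.78 treated and ABCB1 at -3.24 and -3.36 lie near the diagonal, and SMOC1 and SNORD113-3 lie off it.

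Some large differences did not pass all 4 contrasts; these genes were chosen after their values were seen. The largest were NTS, neurotensin (-2.67), RGS5, a regulator of G protein signalling (-2.51), CHRDL1 (-2.25), HPGD, which breaks down prostaglandins (-2.19), and INA, a neurofilament protein (-1.90), and on the other side IL7R (+2.33), AKR1B10 (+2.10), SNORD114-2 (+1.89), ZNF737 (+1.85) and MYPN (+1.80). For HPGD the difference in C13 minus A2008 was -6.34, and for IL7R it was 4.96, so the same direction appeared there on a larger scale. Of the 294 genes, 92 lay outside the range of all 20 other pairs. The 294 were picked for a large difference, which favours such a position, and the share over all genes was not computed.

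In overall pattern DOV13 was the line most like DOV13B. Over 18 lines of batches 1 to 3, with each gene taken from its mean over the lines, untreated DOV13B and DOV13 correlated at 0.818 across genes, and the next most like line to DOV13B was HeyA8 at 0.203. Only CH1 and PA-1, at 0.909, were more alike, and C13 and A2008 were at 0.626. The series also holds DOV13A, with a single untreated array in batch 5, whose scale differs. Taken from the median of the 19 untreated lines of its batch, DOV13A correlated at 0.596 with DOV13 and 0.494 with DOV13B, each taken from the median of its own batch, and at 0.268 with HeyA8. Among genes lower in DOV13B than in DOV13, ABCB1, PLXDC2 and RUNDC3B were each at rank 2 from the highest of the 19 lines in DOV13A, at 6.94, 8.31 and 4.45. ABCB4, which fell with its neighbours ABCB1 and RUNDC3B in DOV13B, was at rank 10 in DOV13A, at the batch median of 2.89. SLC38A5 was at rank 14, GLUL at rank 18 and WNT7A at rank 10. Among genes higher in DOV13B, C3 was at rank 13, at 5.77, and TFPI and CASP1 at rank 10, whereas KCNAB1 and PTX3 were at rank 1 and LRRC17 at rank 2. The chromosome 5 median of DOV13A against the median line of its batch, 0.07, was the highest of the 19, whose lowest was -0.12.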

How the data were processed

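Expression was read from 1 table of log2 values for 33297 probe sets and 171 arrays, which the authors deposited. The submitters' processing notes name RMA; the version and the annotation build were not given in the sources used here. Probe sets with 1 gene symbol in the platform annotation were kept (19460 of them), the probe set with the highest mean per gene was used (18417 genes), and symbols were updated through a RefSeq gene table of GRCh38.p14, which also gave gene order. Untreated DOV13B and DOV13 were compared with limma 3.58.1 in R 4.3.3 (lmFit, eBayes) in a model of 1 mean per line and arm over 107 cultures of batches 1 to 3, with 71 residual degrees of freedom and Benjamini-Hochberg adjustment at 0.05 over all genes. The fit was tested on simulated data. Tables were made with Python 3.11.15. Named genes were the 15 largest differences in each direction among genes past all 4 contrasts, up to 4 members of each of 40 gene lists (2 of a list without a call) and a fixed set; others are said to be chosen after their values were seen. The members, lists and rules were chosen with earlier results of these data known. Replicate numbers, repeat arrays, scaling, dim genes, probe set choice, a minimum change and each culture were varied.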

Additional observations from a re-analysis of the deposited data

Results flagged for a closer look

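In 15 genes the difference between DOV13B and DOV13 was not the same in the treated and untreated arms, by a test of the difference itself (treated minus untreated line difference, limma, adjusted p under 0.05). This count was 1 to 31 when each culture was left out in turn and 0 to 63 under the other settings, so the genes below are uncertain. It was lower after cisplatin for SNORD113-3 (-1.49), DDIT3 (-1.22), LURAP1L (-1.15), FRRS1 (-0.87), ATF3 (-0.77), RMND1 (-0.73), ZNF143 (-0.72), DEPDC5 (-0.66), POLR3C (-0.62), UTP14A (-0.58) and GNL2 (-0.43), and higher for CER1 (1.34), SMOC1 (1.10), PLK1 (0.75) and XXYLT1 (0.60). DDIT3 and ATF3, transcription factors of the integrated stress response, differed by +0.39, not past the threshold, and +0.41 between the untreated lines and by -0.83 and -0.36 between the treated ones. SMOC1, a secreted matricellular protein, was higher in DOV13B in both arms, by 1.16 untreated and 2.26 treated, and CER1, a BMP antagonist, was lower by -1.83 untreated and by -0.49, not past the threshold, treated. The lines were given different doses, each at its own growth-inhibiting concentration, and what part this had was not tested.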

How the results depend on the processing

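The 30 genes with the largest lasting differences stayed past the threshold in the untreated contrast under every alternative run. Of 204 named genes past it, 115 did so in all alternatives, and of 3431 such values 296 were no longer past it and 1 had the opposite sign: DKK3 was -0.04 with the lowest probe set per gene. Against a minimum change of 1.2-fold, calls numbered 770 untreated, 517 treated, 2507 against C13 and A2008, 2841 against the other lines, 189 in all 4 contrasts and 0 between arms. The replicate numbers did not pair cultures (correlations of same-numbered deviations were -0.0809, -0.0124 and -0.0277 untreated); with the replicate block, 2557 genes passed untreated, 1575 treated, 545 all 4 contrasts and 3 between arms. The 15 genes that differed between arms depended most on the setting: 8 with the contrast's cultures alone, 9 with batches 2 and 3 only, 8 without repeat arrays, 63 with repeat arrays in place of the first, 28 after quantile normalization, 26 among bright genes (above the median level) and 42, an alternative chosen after seeing the data, without 2 outlying treated cultures of other lines. Leaving out each culture in turn gave 1 to 31 genes there: 2 without untreated DOV13B culture 3, 8 and 3 without treated DOV13B cultures 1 and 3, 1, 6 and 31 without untreated DOV13 cultures 1, 2 and 3, and 1 without treated DOV13 culture 3. The same gave 2540 to 3418 untreated, 1865 to 2158 treated, 5005 to 5487 against C13 and A2008, 5673 to 6246 against the other lines and 674 to 758 in all 4 contrasts. Higher genes were 64.2% of untreated calls, 68.6% with arrays centred on their median, 52.9% after quantile normalization and 71.7% among bright genes. At 1.2-fold the calls in the main direction fell to 8 interferon, 6 mitotic, 3 replication, 3 epithelial, 6 NRF2, 2 cholesterol, 4 hypoxia and 5 MAPK output genes, and the block left 4 replication genes. The pair ranked 1 of 30 in likeness in untreated and treated cultures. The share of windows beyond 0.3 on chromosome 5 was 92.1% with 40 genes, 76.2% with 20 and 100% with 80, and the chromosome 5 median was 0.21 to 0.27, except 0.48 among bright genes. With 3 cultures a line, small differences and dim genes are the least certain.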
